A study of Mus musculus with 30 samples.

Results

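The amino acid transporters described here are 10 solute carrier genes: Slc3a2, Slc7a1, Slc7a3, Slc7a5, Slc1a4, Slc1a5, Slc38a1, Slc38a2, Slc6a9 and Slc6a6. They were chosen by gene symbol, and each was found once among the 29861 genes of the deposited table through its mouse Ensembl identifier. Their RNA levels were followed across 9 groups of a mouse tail fibroblast line. All 10 passed the filter on low values and were among the 13644 genes tested.

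RNA sequencing was done on CCG-HTA-1, a line of tail fibroblasts from UMHet3 mice, which are a genetically mixed stock. The cells were at passage 4 and grew at ambient oxygen in high glucose DMEM lacking pyruvate, with fetal calf serum. Cultures were collected 48 hours after treatment with Antimycin A, Dihydrorotenone, Diphenyleneiodonium Cl, Cardamonin, BerberineA, Clofilium tosylate, AEG 3482 or Podofilox, with 3 libraries each, or with DMSO, the solvent control, with 6 libraries. The labels give an age of 5 to 8 weeks for the mice behind 29 libraries and of 8 to 11 weeks for Dihydrorotenone replicate 1. The doses are not used here, so compounds are compared as they were applied. As background on the compounds, Antimycin A blocks complex III of the respiratory chain and Dihydrorotenone is a relative of rotenone, which blocks complex I. Diphenyleneiodonium inhibits flavoenzymes, Podofilox (podophyllotoxin) blocks tubulin assembly, Clofilium blocks potassium channels, and Cardamonin is a plant chalcone that can react with thiols.

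Amino acid transporters of the cell surface fall into families with different cargoes. The heavy chain of CD98, encoded by Slc3a2, carries no amino acid itself but brings light chains of the Slc7 family to the membrane, where they exchange one amino acid for another. Other carriers move arginine and lysine (Slc7a1, Slc7a3), small neutral amino acids (Slc1a4, Slc1a5, Slc38a1, Slc38a2) or glycine and taurine with sodium and chloride (Slc6a9, Slc6a6). Many of these genes are known targets of ATF4, the transcription factor that cells make when amino acids run short or the endoplasmic reticulum or mitochondria are disturbed. Some carriers of compatible solutes, such as taurine and myo-inositol, are also known to answer to hypertonic stress through NFAT5.

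Levels are given as TPM, a relative abundance per transcript length scaled to the same total in every library, so that genes as well as libraries can be set side by side. The number of reads behind each library is unknown. Differences are log2 fold changes of TPM + 1, tested with limma across all 13644 genes. A gene is said to have risen or fallen where its p, adjusted by Benjamini and Hochberg's method over those genes, was below 0.05. All libraries come from 1 cell line, and nothing in the labels states that they are separate animals, so the p-values measure only the spread between these libraries. The sample numbers in the labels run on within each treatment, so any order of handling and the treatment cannot be told apart.

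The libraries had the markers of fibroblasts. All 10 fibroblast markers were detected, with summed levels of 9759 to 11278 TPM in DMSO and 3806 to 4819 TPM in Cardamonin, the group with the lowest sums. Of 5 epithelial, 4 endothelial and 4 skeletal muscle markers, 4, 3 and 4 stayed under 1 TPM in all 30 libraries. Of 5 immune markers, Ptprc, Cd3e and Itgam stayed under 1 TPM in all 30 libraries. The summed immune level was 22.5 to 26.7 TPM in DMSO and 27.8 to 44.1 TPM in Cardamonin. It came almost wholly from Cd68 and Adgre1, which moved in opposite directions: Cd68 was at 11.5 to 14.7 TPM in DMSO and 25.5 to 41.4 TPM in Cardamonin, and Adgre1 at 9.05 to 12.1 TPM and 1.62 to 2.16 TPM. Adgre1 was below its DMSO range in all 8 compounds, at 1.62 to 7.37 TPM. The summed endothelial level was 5.42 to 8.71 TPM in DMSO, 1.09 to 1.18 TPM in Cardamonin and 1.63 to 1.77 TPM in AEG 3482, with Pecam1, Cdh5 and Kdr under 1 TPM throughout. The summed adipocyte level, nearly all of it Fabp4 since Adipoq and Plin1 stayed under 1 TPM, was 17.2 to 28.6 TPM in DMSO and 5.59 to 8.16 TPM in AEG 3482. The part of these markers in the results for Cardamonin and AEG 3482 was not tested. In RNA from whole cultures, fewer cells of a type and less RNA per cell cannot be told apart.

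The genes lie on 9 chromosomes, and only Slc38a1 and Slc38a2 are neighbours. In the GRCm38 build with the GENCODE M21 annotation, their whole gene bodies span chromosome 15 from 96571418 to 96642913 and from 96687392 to 96699730, both on the minus strand. RefSeq promoter windows were at hand for 5 of the 10 members (Slc3a2, Slc7a1, Slc1a4, Slc38a2 and Slc6a9), in 8 windows. Each window runs from 250 bases before to 50 bases after an annotated start site. The sequences below show 4 of these windows, cut at 30 bases after the start, because of these 5 members Slc1a4, Slc7a1 and Slc3a2 each rose in 5 compounds and Slc38a2 in 1. They are RefSeq sequence of GRCm38.p6, 5′ to 3′ on the gene's own strand. Capitals mark a match to TGATGNAA, the core of the C/EBP-ATF response element, or to TGACNNNGC, the core of the antioxidant response element, searched on both strands.
Slc1a4, chr11:20332684-20332963, minus strand: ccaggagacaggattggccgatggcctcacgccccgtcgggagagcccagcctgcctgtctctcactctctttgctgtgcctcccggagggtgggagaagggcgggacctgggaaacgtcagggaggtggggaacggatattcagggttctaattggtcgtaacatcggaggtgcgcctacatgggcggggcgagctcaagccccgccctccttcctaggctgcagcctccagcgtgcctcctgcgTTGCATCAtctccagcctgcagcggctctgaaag
Slc7a1, chr5:148399875-148400154, minus strand: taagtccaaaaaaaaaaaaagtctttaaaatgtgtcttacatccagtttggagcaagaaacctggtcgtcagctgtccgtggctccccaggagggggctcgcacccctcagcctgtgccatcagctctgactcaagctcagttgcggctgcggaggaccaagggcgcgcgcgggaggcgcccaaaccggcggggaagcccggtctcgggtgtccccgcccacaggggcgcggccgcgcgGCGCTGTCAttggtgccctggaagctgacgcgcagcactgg
Slc3a2, chr19:8713868-8714147, minus strand: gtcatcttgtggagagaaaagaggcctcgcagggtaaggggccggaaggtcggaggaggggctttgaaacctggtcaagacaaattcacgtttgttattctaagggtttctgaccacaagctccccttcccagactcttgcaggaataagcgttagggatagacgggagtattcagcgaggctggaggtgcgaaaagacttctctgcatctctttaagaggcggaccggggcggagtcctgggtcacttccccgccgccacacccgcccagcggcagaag
Slc38a2, chr15:96699699-96699978, minus strand: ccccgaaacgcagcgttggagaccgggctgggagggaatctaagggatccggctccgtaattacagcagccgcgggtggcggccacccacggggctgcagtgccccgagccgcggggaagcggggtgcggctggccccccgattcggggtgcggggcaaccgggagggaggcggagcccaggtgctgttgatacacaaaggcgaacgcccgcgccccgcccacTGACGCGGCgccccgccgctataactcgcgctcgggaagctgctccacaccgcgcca

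The Slc1a4 window held the TGATGNAA core as TTGCATCA, read on the opposite strand, beginning 4 bases before the start site. None of the other 7 windows of members held that core, which 3.97% of all 32851 promoter windows of the same length hold. The TGACNNNGC core, found in 12.4% of all windows, was present in 1 of 2 windows of Slc7a1, in the Slc38a2 window and in 2 of 3 windows of Slc6a9. The Slc3a2 window, at an annotated start inside the gene body, held neither. These are matches of letters, not measured binding sites. Sequence outside the windows was not searched, so a missing match does not show that a gene lacks the core.

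Cardamonin, Podofilox and AEG 3482 raised most of the transporters, Clofilium tosylate and Antimycin A raised several by less, and Dihydrorotenone and Diphenyleneiodonium Cl lowered several. In Cardamonin, 9 of 10 members rose and none fell, where 37.3% of all tested genes rose and 33% fell. In Podofilox, 8 rose and 1 fell, against a background of 26.2% higher and 20% lower. In AEG 3482, 6 rose and none fell, against 41.3% and 26.8%. The count of rises there stood closer to the background than in Cardamonin or Podofilox. Counting both directions, 6 of 10 members passed the test in AEG 3482, beside 9287 of all 13644 genes. In Clofilium tosylate, 6 rose and 2 fell, where 10.9% of genes rose and 12.5% fell. In Antimycin A, 5 rose and 1 fell, where 21.8% rose and 15.5% fell. In Diphenyleneiodonium Cl, 1 rose and 4 fell, against 14% and 11.7%. In Dihydrorotenone, 1 rose and 6 fell, against 4.95% and 9.43%. In BerberineA, 1 rose and 2 fell, which is near the background of 12.6% and 9.16%. All 8 comparisons share the 6 DMSO libraries.

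The median log2 fold change of the 10 genes was 1.70 in Cardamonin, 0.94 in AEG 3482 and 0.66 in Podofilox. It was 0.31 with Clofilium tosylate, 0.23 with Antimycin A, -0.07 with BerberineA, -0.13 with Diphenyleneiodonium Cl and -0.22 with Dihydrorotenone. The median over all tested genes lay between -0.03 and 0.10 in these comparisons. Summed over the 10 genes, the level was 362 to 399 TPM in the DMSO libraries and 1076 to 1123 TPM in the Cardamonin libraries. The sums in AEG 3482, at 624 to 671 TPM, and in Podofilox, at 488 to 518 TPM, also lay above every DMSO library. Those in Dihydrorotenone, at 315 to 343 TPM, lay below every DMSO library.

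**Figure D1:**
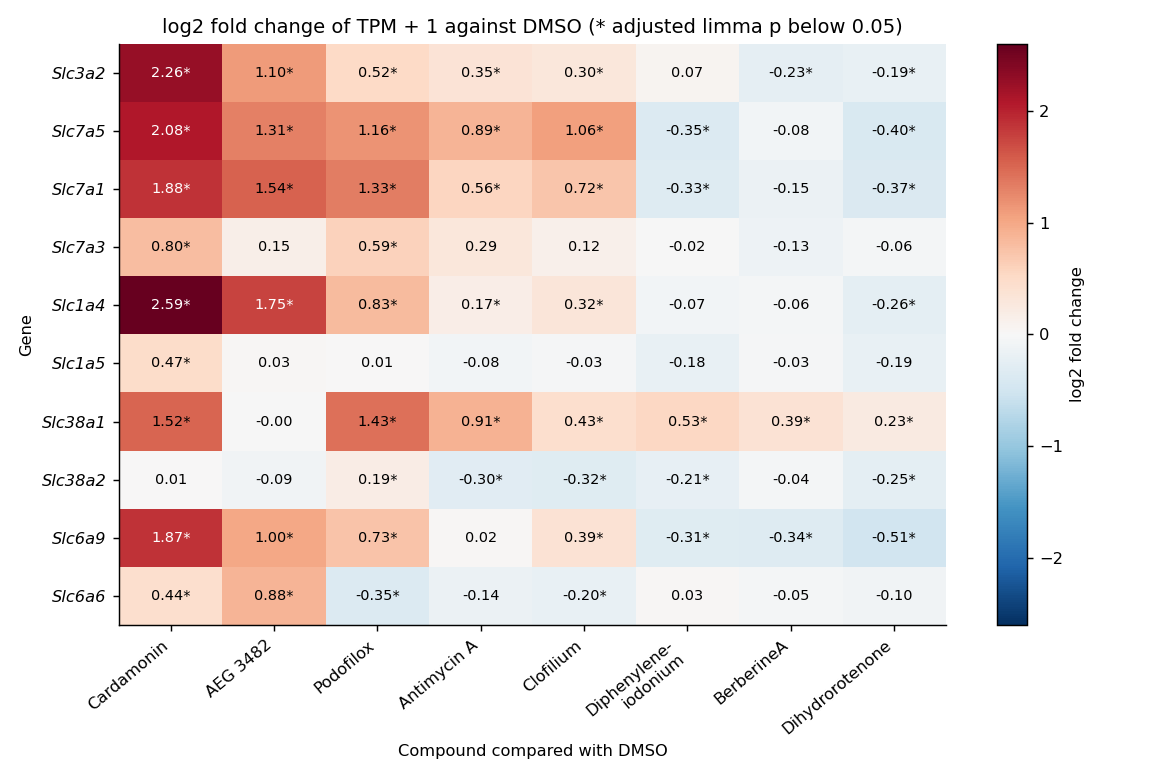
Heat map of the log2 fold change of TPM + 1 for 10 transporter genes (rows) in 8 compounds against DMSO (columns), with the value printed in each cell and an asterisk where the limma adjusted p was below 0.05. Red is higher and blue lower than DMSO; the Cardamonin column holds 9 rises and the Dihydrorotenone column 6 falls, and the Slc38a1 row rises in 7 of 8 compounds.

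Slc3a2, the CD98 heavy chain on chromosome 19 (8706882 to 8723369, minus strand), had the highest level of the 10 genes in Cardamonin. It was at 599, 608 and 644 TPM in Cardamonin, where the DMSO libraries ran from 115 to 134 TPM with a median of 129.8. AEG 3482 gave 263, 270.2 and 292 TPM and Podofilox 179.9, 184 and 186 TPM. The libraries of these 3 compounds did not overlap with each other or with DMSO. The log2 fold change was 2.26 in Cardamonin (SE 0.05, adjusted p = 8.8e-22 by limma), 1.10 in AEG 3482 (adjusted p = 2.92e-15) and 0.52 in Podofilox (adjusted p = 1.87e-08). Antimycin A, at 159, 162 and 169.7 TPM, and Clofilium tosylate, at 147, 152 and 176 TPM, overlapped each other and lay above DMSO, with rises of 0.35 and 0.30. In BerberineA the gene fell to 102, 111 and 114 TPM, a log2 fold change of -0.23 (adjusted p = 0.00293), with every library below DMSO.

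Slc7a5 encodes LAT1, the CD98 light chain that exchanges leucine and other large neutral amino acids for glutamine. The gene lies on chromosome 8 (121881150 to 121907694, minus strand). Its level was low beside Slc3a2, at 6.83 ± 1.3 TPM (SD, n = 6) in DMSO, with libraries from 5.66 to 9.13 TPM with a median of 6.49. Cardamonin raised it to 31.01, 31.9 and 32.3 TPM, AEG 3482 to 17.6, 17.9 and 19.1 TPM and Podofilox to 15.7, 16.3 and 16.8 TPM. Clofilium tosylate gave 13.4, 14.7 and 17.4 TPM and Antimycin A 12.4, 13.7 and 14.1 TPM. Every library of these 5 compounds lay above all 6 DMSO libraries, and the ranges of Podofilox, Clofilium tosylate and Antimycin A met or overlapped in the order of their means. The log2 fold changes were 2.08 in Cardamonin (SE 0.10, adjusted p = 1.35e-15), 1.31 in AEG 3482, 1.16 in Podofilox, 1.06 in Clofilium tosylate and 0.89 in Antimycin A, with limma adjusted p of at most 1.33e-07 in the last 4. Of the 8 compounds, BerberineA left the closest level, at 5.88, 6.42 and 6.68 TPM (log2 -0.08, 95% interval -0.29 to 0.13).

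**Figure D2:**
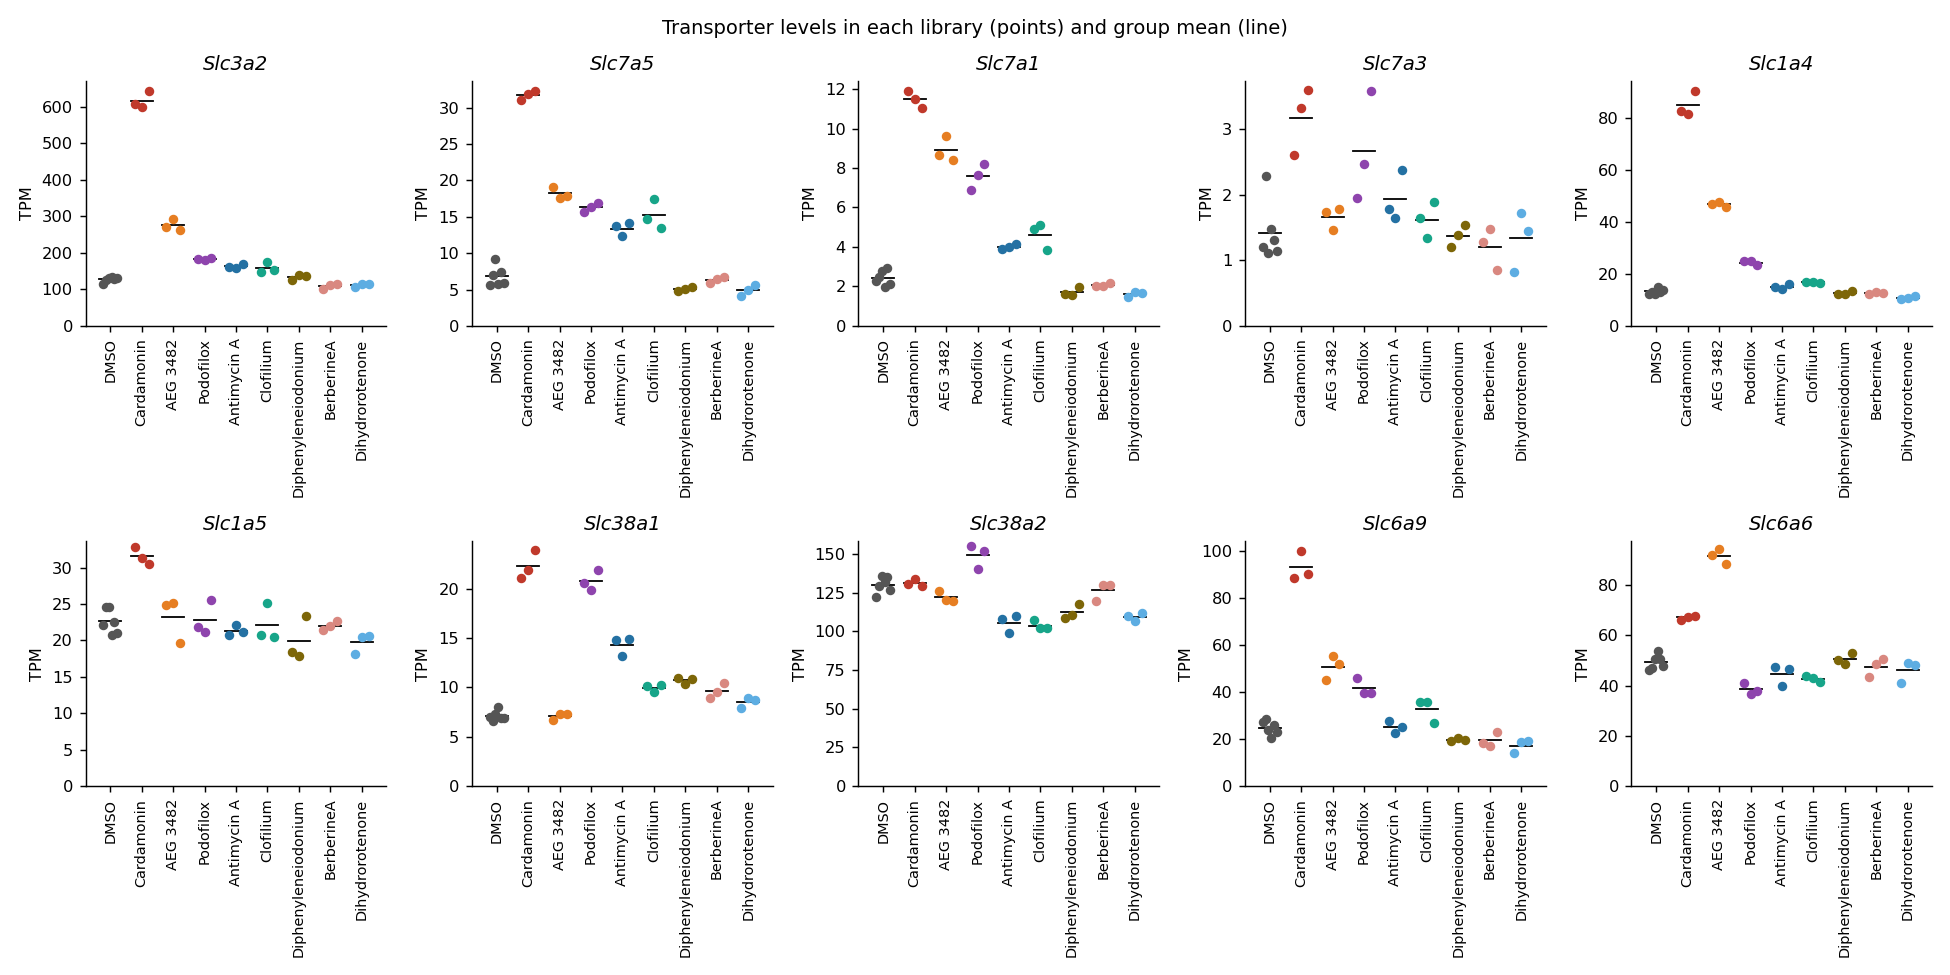
TPM of the 10 transporter genes, 1 panel each with its own axis from 0, in each of 30 libraries (points) of 9 groups, with the group mean as a line. Cardamonin is the highest group in 8 panels, Podofilox in the Slc38a2 panel (139.9 to 155 TPM) and AEG 3482 in the Slc6a6 panel (88.5 to 94.5 TPM).

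CD98 serves several light chains, and their make-up differed between groups. The 6 light chain genes Slc7a5, Slc7a6, Slc7a7, Slc7a8, Slc7a10 and Slc7a11 summed to 39.9 to 49.7 TPM in DMSO, where Slc7a11 held 38.0 to 51.6% of the sum. Slc7a11 encodes xCT, which brings in cystine in exchange for glutamate. In Cardamonin the sum was 470.1 to 503 TPM and Slc7a11 held 89.4 to 90.6% of it. The share was 70.1 to 73.6% in AEG 3482 and 62.8 to 66.5% in Podofilox, also above every DMSO library. Slc7a11 itself rose from 19.2 ± 3.4 TPM (SD, n = 6) in DMSO to 435 ± 18 TPM (SD, n = 3) in Cardamonin, a rise of 4.45 on the log2 scale (limma adjusted p = 2.72e-22). Although Slc7a5 rose in Cardamonin, its share of the sum was 6.42 to 6.65%, below the 11.7 to 22.2% of DMSO. Its share was highest in Clofilium tosylate, at 24.7 to 32.4%, and in Antimycin A, at 23.5 to 25.5%.

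The ratio of heavy chain RNA to summed light chain RNA was 2.69 to 3.19 in DMSO. It was 1.25 to 1.29 in Cardamonin, 1.7 to 2.12 in AEG 3482 and 1.68 to 1.85 in Podofilox, all below every DMSO library. In Antimycin A it was 2.96 to 3.01, within the range of DMSO, and in Dihydrorotenone it was 3.27 to 3.72, above it. No test was made of these shares and ratios.

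**Figure D3:**
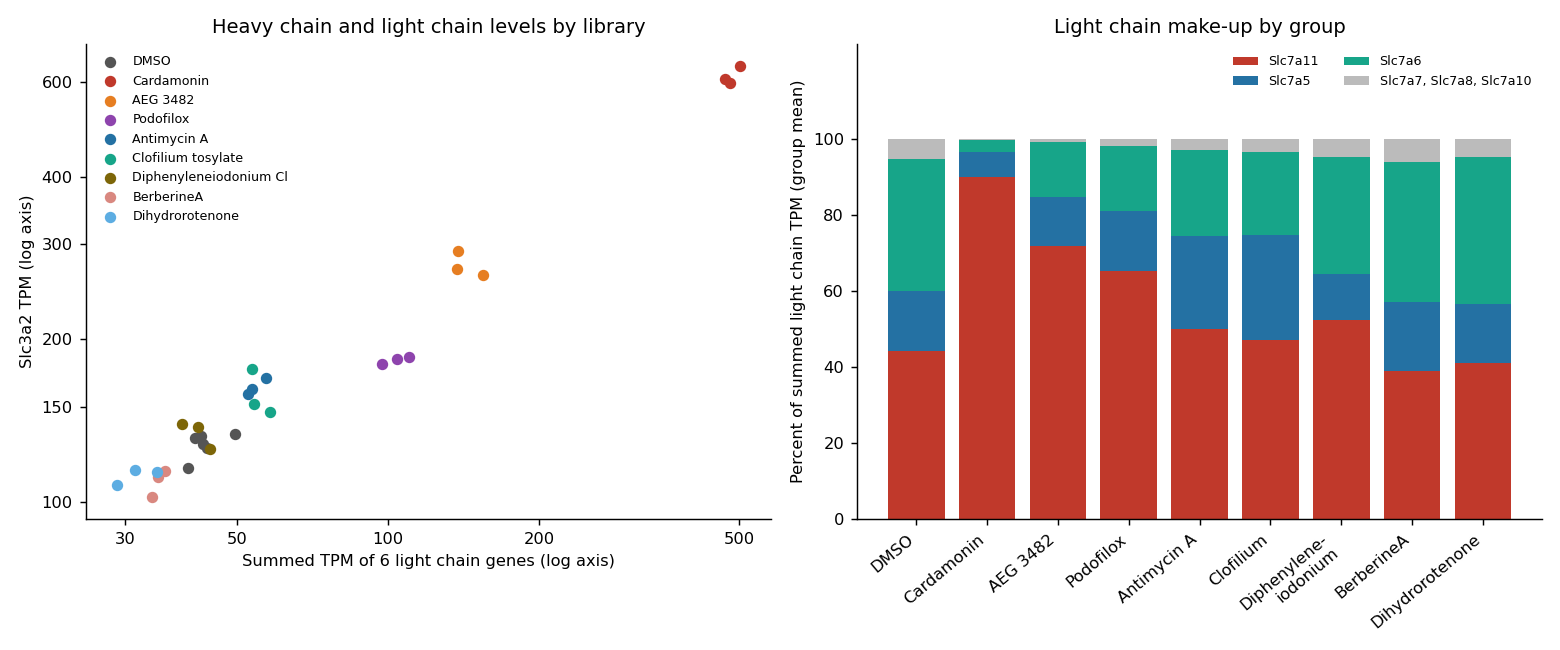
Left, Slc3a2 TPM against the summed TPM of 6 light chain genes in each library, both on log axes and coloured by group; right, the group mean share of each light chain gene in that sum, in percent. The Cardamonin libraries stand at the upper right, and Slc7a11 takes 89.9% of their sum, against 44.1% in DMSO.

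Slc7a1 encodes CAT-1, the widely expressed carrier of arginine and lysine. The gene lies on chromosome 5 (148327410 to 148399904, minus strand), and the window printed above is the one at its outer start. It was at 11.0, 11.5 and 11.9 TPM in Cardamonin, 8.4, 8.64 and 9.63 TPM in AEG 3482 and 6.87, 7.64 and 8.22 TPM in Podofilox, and the DMSO libraries ran from 1.96 to 2.92 TPM with a median of 2.37. These 3 compounds did not overlap with each other or with DMSO. Clofilium tosylate gave 3.84, 4.91 and 5.09 TPM and Antimycin A 3.91, 3.99 and 4.14 TPM, which overlapped each other and lay above DMSO. The log2 fold change was 1.88 in Cardamonin (SE 0.09, limma adjusted p = 3.67e-16), 1.54 in AEG 3482, 1.33 in Podofilox, 0.72 in Clofilium tosylate and 0.56 in Antimycin A. At such low levels the added 1 TPM makes the fold change smaller than the ratio of the means.

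Slc7a3, which encodes CAT-3, a related carrier of cationic amino acids, was the least abundant member, and its libraries spread widely for its level. It lies on the X chromosome (101079210 to 101086020, minus strand). Cardamonin gave 2.61, 3.33 and 3.6 TPM and Podofilox 1.94, 2.47 and 3.58 TPM, against DMSO libraries from 1.11 to 2.29 TPM with a median of 1.26. The highest of those was DMSO replicate 2, so that only the Cardamonin libraries lay above all 6. The rises were 0.80 in Cardamonin (limma adjusted p = 4.43e-05) and 0.59 in Podofilox (adjusted p = 0.0022). In Antimycin A the log2 fold change was 0.29 (95% interval -0.02 to 0.60, adjusted p = 0.144), and 0.38 (adjusted p = 0.0373) without DMSO replicate 2. In the other 5 compounds the estimate lay between -0.13 and 0.15 and did not pass the test.

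Slc1a4 and Slc1a5 encode ASCT1 and ASCT2, sodium-dependent exchangers of alanine, serine, cysteine and, for ASCT2, glutamine. Slc1a4 lies on chromosome 11 (20302180 to 20332713, minus strand) and Slc1a5 on chromosome 7 (16781340 to 16798274, plus strand). Slc1a4 was at 81.8, 82.7 and 90.4 TPM in Cardamonin, 45.9, 47.0 and 47.8 TPM in AEG 3482 and 23.4, 24.8 and 24.8 TPM in Podofilox, and its DMSO libraries ran from 12.3 to 14.9 TPM with a median of 13.1. The groups did not overlap, and the log2 fold change of 2.59 in Cardamonin (SE 0.05, limma adjusted p = 6.16e-23) was the highest of any member in any compound. It was 1.75 in AEG 3482 (adjusted p = 2.09e-19) and 0.83 in Podofilox (adjusted p = 2.92e-12). Clofilium tosylate, at 16.6, 16.9 and 17.1 TPM, was above DMSO by 0.32. The rise of 0.17 in Antimycin A (adjusted p = 0.016) came from libraries that overlapped DMSO, and without Antimycin A replicate 3 it was 0.12 (adjusted p = 0.134). With only Antimycin A and DMSO fitted, its limma adjusted p was 0.0964.

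Slc1a5 stood much closer to DMSO. It was at 30.5, 31.4 and 32.9 TPM in Cardamonin, above DMSO libraries from 20.7 to 24.6 TPM with a median of 22.4, a rise of 0.47 (limma adjusted p = 2.73e-05). In the other 7 compounds its libraries ran from 17.9 to 25.6 TPM, and no change passed the test with all libraries. In 6 of them they overlapped the DMSO range. In Dihydrorotenone, at 18.1, 20.5 and 20.6 TPM, each lay below it, with an estimate of -0.19 (95% interval -0.36 to -0.01, adjusted p = 0.156). In Diphenyleneiodonium Cl the estimate was -0.18 (adjusted p = 0.121), and without its replicate 3 it was -0.30 (adjusted p = 0.0176). In AEG 3482 the estimate was 0.03 with a 95% interval of -0.14 to 0.21, beside 1.75 and 1.64 to 1.86 for Slc1a4. The ratio of Slc1a4 to Slc1a5 was 0.503 to 0.717 in DMSO, 0.914 to 1.17 in Podofilox, 1.89 to 2.33 in AEG 3482 and 2.52 to 2.96 in Cardamonin. Slc1a5 was thus the more abundant of the pair in DMSO and Slc1a4 the more abundant in Cardamonin and AEG 3482.

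Slc38a1 and Slc38a2 encode SNAT1 and SNAT2, sodium-coupled carriers of glutamine, alanine and other small neutral amino acids. The neighbours moved differently. Slc38a1 was at 21.2, 21.9 and 24.0 TPM in Cardamonin and 19.9, 20.6 and 21.9 TPM in Podofilox, which overlapped, and its DMSO libraries ran from 6.65 to 8.07 TPM with a median of 6.93. Antimycin A followed with 13.2, 14.8 and 14.9 TPM. Diphenyleneiodonium Cl gave 10.3, 10.9 and 11.0 TPM, Clofilium tosylate 9.52, 10.1 and 10.2 TPM and BerberineA 8.92, 9.53 and 10.4 TPM, all above every DMSO library. Dihydrorotenone, at 7.94, 8.71 and 8.96 TPM, overlapped the highest of them.

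Slc38a1 rose in 7 of 8 compounds. The log2 fold change was 1.52 in Cardamonin (SE 0.06, limma adjusted p = 1.46e-17), 1.43 in Podofilox (adjusted p = 9.76e-16) and 0.91 in Antimycin A (adjusted p = 1.12e-11). It was 0.53 with Diphenyleneiodonium Cl, 0.43 with Clofilium tosylate, 0.39 with BerberineA and 0.23 with Dihydrorotenone. The call in Dihydrorotenone was lost without Dihydrorotenone replicate 2 (0.20, adjusted p = 0.0749) and with only Dihydrorotenone and DMSO fitted (adjusted p = 0.0866). The exception was AEG 3482, at 6.69, 7.27 and 7.34 TPM, where the 95% interval ran from -0.13 to 0.12 (adjusted p = 0.955). Cardamonin and AEG 3482, which raised Slc3a2, Slc1a4 and Slc7a1 together, differed in Slc38a1 by 1.53 (95% interval 1.38 to 1.67, adjusted p = 3.04e-15).

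Slc38a2 was the more abundant of the pair in every group and changed little. Its DMSO libraries ran from 122 to 136 TPM with a median of 131. Podofilox, at 139.9, 152 and 155 TPM, raised it by 0.19 (limma adjusted p = 0.00051). Clofilium tosylate gave 102, 102 and 107 TPM, Antimycin A 98.6, 108 and 109.9 TPM, Dihydrorotenone 106, 109.8 and 112 TPM and Diphenyleneiodonium Cl 108, 111 and 117 TPM, each library below all 6 of DMSO. The falls were -0.32, -0.30, -0.25 and -0.21 on the log2 scale, and Slc38a1 rose in the same 4 compounds. In Cardamonin the estimate was 0.01 (95% interval -0.08 to 0.10, adjusted p = 0.819), and quantile normalization turned it to -0.0916 (adjusted p = 0.041). In AEG 3482 it was -0.09 (adjusted p = 0.0615), and it passed the test as a fall with median-ratio scaling (-0.20, adjusted p = 1.11e-05), with quantile normalization (-0.25, adjusted p = 5.46e-06), without AEG 3482 replicate 1 (-0.11, adjusted p = 0.0456) and without DMSO replicate 1 (-0.11, adjusted p = 0.0281). The ratio of Slc38a1 to Slc38a2 was 0.051 to 0.0612 in DMSO, 0.162 to 0.185 in Cardamonin, 0.133 to 0.144 in Podofilox, 0.134 to 0.137 in Antimycin A and 0.053 to 0.0609 in AEG 3482.

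Slc6a9 encodes GlyT1, a glycine carrier driven by sodium and chloride. It lies on chromosome 4 (117834506 to 117875198, plus strand) and overlaps Ccdc24 on the other strand, from 117866524 to 117872557. Of its 31-base words, 28.45% also occur in transcripts of other genes, chiefly Ccdc24, so its value is less certain than those of the other members, where the share was 6.94% or less. Ccdc24 was at 0.744 to 2.40 TPM in all 30 libraries, far below Slc6a9. Slc6a9 was at 88.7, 90.4 and 99.8 TPM in Cardamonin, 44.9, 51.9 and 55.1 TPM in AEG 3482 and 39.5, 39.7 and 46.2 TPM in Podofilox, above DMSO libraries from 20.5 to 28.6 TPM with a median of 24.9. AEG 3482 and Podofilox overlapped each other. The rises were 1.87 (SE 0.11, limma adjusted p = 8.11e-14), 1.002 (adjusted p = 1.74e-08) and 0.73 (adjusted p = 6.41e-06).

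In Clofilium tosylate the Slc6a9 level was 26.8, 35.8 and 35.9 TPM, a rise of 0.39 (adjusted p = 0.0133), with its lowest library inside the DMSO range. Without Clofilium tosylate replicate 1 the adjusted p was 0.0889, and without replicate 2 it was 0.0992. With only Clofilium tosylate and DMSO fitted, the limma adjusted p was 0.0515. In Antimycin A it was at 22.7, 25.3 and 27.7 TPM, within the DMSO range (log2 0.02, 95% interval -0.21 to 0.26), so that Slc7a5 and Slc7a1 rose there and Slc6a9 did not pass the test.

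Slc6a6, the taurine carrier on chromosome 6 (91684053 to 91759066, plus strand), had an order of its own. AEG 3482 gave 88.5, 92.0 and 94.5 TPM and Cardamonin 66.2, 67.3 and 67.8 TPM, and the DMSO libraries ran from 46.2 to 53.7 TPM with a median of 49.1. Podofilox, which raised 8 other members, gave 36.6, 37.7 and 41.1 TPM. The 3 compounds did not overlap with each other or with DMSO. The log2 fold change was 0.88 in AEG 3482 (SE 0.06, limma adjusted p = 2.89e-12), 0.44 in Cardamonin (adjusted p = 6.34e-07) and -0.35 in Podofilox (adjusted p = 4.14e-05). The fall in Clofilium tosylate, to 41.4, 42.9 and 43.7 TPM, was -0.20 (adjusted p = 0.0178), and it was -0.18 (adjusted p = 0.0848) without Clofilium tosylate replicate 3 and -0.21 (adjusted p = 0.053) without replicate 2. In Antimycin A the estimate was -0.14 (adjusted p = 0.069), and it passed as a fall with median-ratio scaling (-0.17, adjusted p = 0.00411), with quantile normalization (-0.19, adjusted p = 0.0025), without Antimycin A replicate 1 (-0.19, adjusted p = 0.0451) and without DMSO replicate 1 (-0.16, adjusted p = 0.0477).

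Among 4 osmolyte genes set beside Slc6a6, Slc5a3, the myo-inositol carrier, shared its order at the top. Slc5a3 was at 39.7, 41.2 and 42.4 TPM in AEG 3482 and 18.2, 19.1 and 21.0 TPM in Cardamonin, above DMSO libraries from 10.4 to 11.7 TPM with a median of 11.0, with rises of 1.81 (limma adjusted p = 3.52e-18) and 0.77 (adjusted p = 6e-11). In Podofilox it fell by 0.34 on the log2 scale, as Slc6a6 did. In the other 5 compounds too, the Slc5a3 libraries lay below every DMSO library, at 6.94 to 9.89 TPM. Slc6a6 passed the test as a fall in only 1 of those 5, Clofilium tosylate. The other 3 osmolyte genes did not share the rise in AEG 3482. Nfat5, the transcription factor, was at 45.7 ± 3.8 TPM (SD, n = 3) there and 44.7 ± 6.4 TPM (SD, n = 6) in DMSO, a log2 fold change of 0.04 (adjusted p = 0.745). Akr1b3, aldose reductase, which makes sorbitol, fell by 0.18 on the log2 scale in AEG 3482 and rose by 0.53 in Cardamonin. Slc6a12, the betaine carrier, had group means of 0.475 to 1.38 TPM except in Podofilox, where it rose to 2.89 ± 0.55 TPM (SD, n = 3). In all, 1 of the 4 rose and 1 fell in AEG 3482, and 2 rose and 1 fell in Cardamonin and in Podofilox. None rose in the other 5 compounds, where the changes that passed were all falls. Clofilium tosylate lowered 3 of the 4 genes, as did Antimycin A. BerberineA, Diphenyleneiodonium Cl and Dihydrorotenone each lowered 2. Counts out of 4 genes are too small to set against the shares of all tested genes.

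In Dihydrorotenone 6 transporters fell, and Slc38a1 alone rose. Those that fell were Slc6a9 (-0.51 on the log2 scale), Slc7a5 (-0.40), Slc7a1 (-0.37), Slc1a4 (-0.26), Slc38a2 (-0.25) and Slc3a2 (-0.19). Slc7a1 was at 1.48, 1.68 and 1.73 TPM and Slc1a4 at 10.4, 10.6 and 11.7 TPM, every library below DMSO. Without Dihydrorotenone replicate 1, the library with the older mice, 4 members passed the test: Slc3a2 (0.0197 as limma adjusted p with it, 0.121 without), Slc7a5 (0.101 without) and Slc6a9 (0.054 without) did not. When only the Dihydrorotenone and DMSO libraries were fitted, 2 passed. Diphenyleneiodonium Cl lowered Slc7a5 (-0.35), Slc7a1 (-0.33), Slc6a9 (-0.31) and Slc38a2 (-0.21), of which Slc7a5 and Slc6a9 were lost without Diphenyleneiodonium Cl replicate 1 (adjusted p = 0.0634 and 0.124). With those 2 groups fitted alone, Slc7a1 and Slc7a5 did not pass (adjusted p = 0.0584 and 0.0869). BerberineA lowered Slc3a2 and Slc6a9 (-0.34, adjusted p = 0.0286), and the call on Slc6a9 was lost without BerberineA replicate 1 or 2 (adjusted p = 0.111 and 0.176). That call was also lost with only BerberineA and DMSO fitted (limma adjusted p = 0.073). Slc6a9 also lost its fall in both of these compounds when no filter on low values was used (adjusted p = 0.0712 in Diphenyleneiodonium Cl and 0.0527 in BerberineA). In Diphenyleneiodonium Cl it was lost as well without its replicate 2 or 3 (adjusted p = 0.0773 and 0.103) or DMSO replicate 1, 2 or 5 (adjusted p = 0.0754, 0.0825 and 0.0656), and in BerberineA without DMSO replicate 1 or 2 (adjusted p = 0.0562 and 0.0616).

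Compounds were also set against each other directly in the same fit. Between Cardamonin and AEG 3482, 8 members were higher in Cardamonin and 1 was lower, where 22.6% and 32.7% of all tested genes were. The difference was 1.53 for Slc38a1, 1.16 for Slc3a2, 0.87 for Slc6a9, 0.84 for Slc1a4, 0.77 for Slc7a5, 0.64 for Slc7a3, 0.43 for Slc1a5 and 0.34 for Slc7a1. Slc6a6 was the member that was lower, by 0.44 (limma adjusted p = 8.17e-06). Slc38a2 did not pass (0.10, 95% interval 0.00 to 0.20). It passed with median-ratio scaling (0.18, adjusted p = 0.000219), with quantile normalization (0.15, adjusted p = 0.00543) and with these 2 groups fitted alone (0.10, adjusted p = 0.0469).

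Between Podofilox and Cardamonin, 7 members were lower in Podofilox and 1, Slc38a2, was higher, where 28.7% of genes were lower and 29.1% higher. The difference was -1.76 for Slc1a4 and -1.75 for Slc3a2, against -0.54 for Slc7a1. Slc38a1 did not differ beyond the spread (-0.10, 95% interval -0.24 to 0.05), and neither did Slc7a3 (-0.21, -0.56 to 0.15).

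The respiratory chain inhibitors Antimycin A and Dihydrorotenone differed in 6 members, all higher in Antimycin A, where 11.6% of genes were higher and 3.91% lower. Slc7a5 differed by 1.29 (limma adjusted p = 2.79e-08), Slc7a1 by 0.93, Slc38a1 by 0.68, Slc3a2 by 0.54, Slc6a9 by 0.53 and Slc1a4 by 0.43. The difference in Slc6a9 was 0.39 (adjusted p = 0.0574) without Dihydrorotenone replicate 1. Slc38a2 did not pass (-0.06), and with median-ratio scaling it was lower in Antimycin A (-0.12, adjusted p = 0.0381). Between Antimycin A and Clofilium tosylate only Slc38a1 passed the test, with a difference of 0.48 (adjusted p = 0.000111), where 3.85% of genes were higher in Antimycin A and 1.36% lower. For Slc7a5 the difference was -0.17 (95% interval -0.41 to 0.08) and for Slc7a1 -0.16 (-0.36 to 0.05). The intervals of Slc6a9 (-0.36, -0.63 to -0.09) and Slc1a4 (-0.16, -0.28 to -0.03) lay below 0 before adjustment (adjusted p = 0.112 and 0.155). Without Clofilium tosylate replicate 3, Slc6a9 also passed (-0.50, adjusted p = 0.0394).

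**Figure D4:**
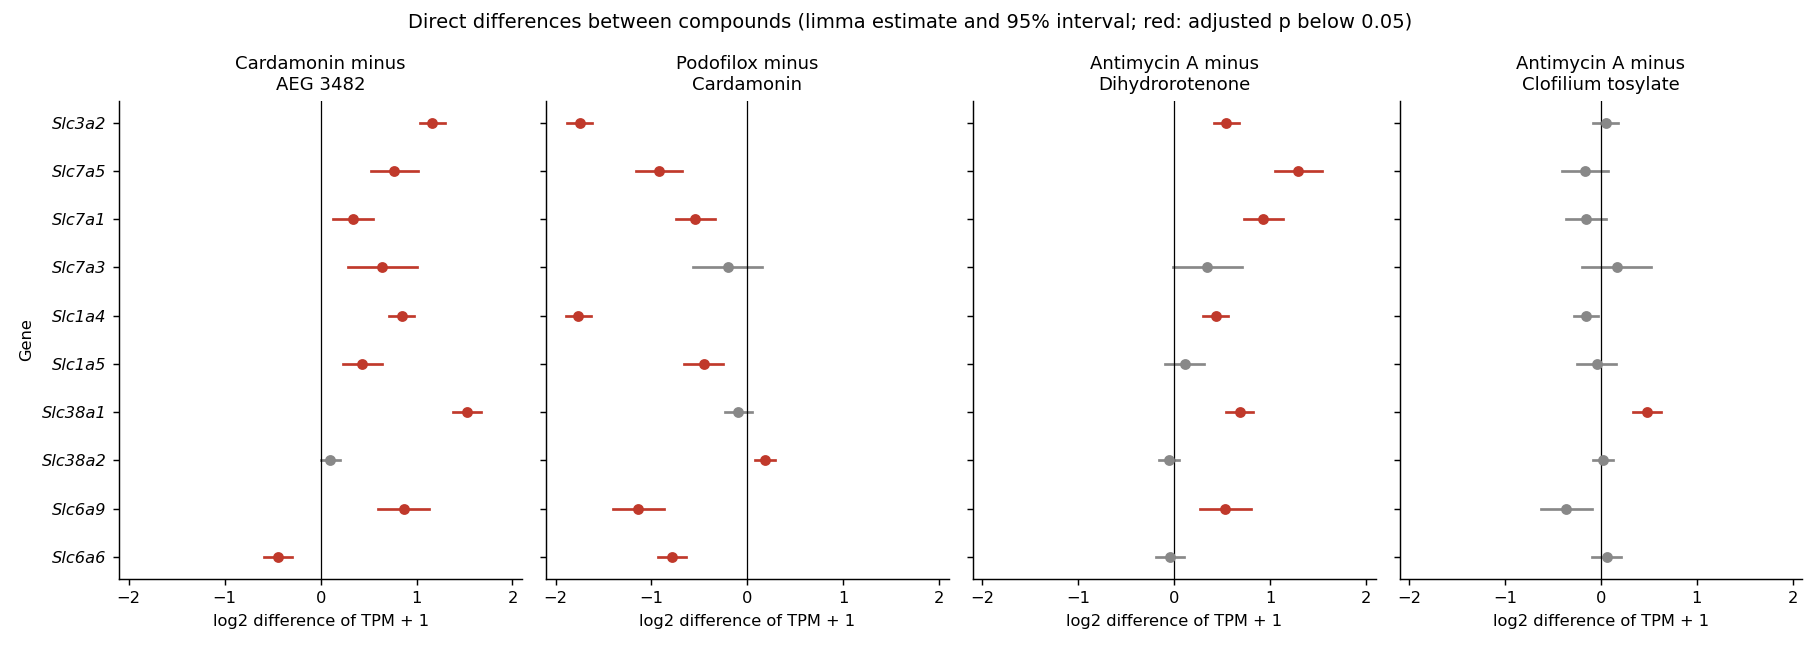
Difference in log2(TPM + 1) of the 10 transporter genes between pairs of compounds, as the limma estimate (point) with its 95% interval (line), red where the adjusted p was below 0.05 and grey where it was not. Slc6a6 lies on the other side of 0 from the other members that differ between Cardamonin and AEG 3482, and Slc38a1 is the only red gene between Antimycin A and Clofilium tosylate.

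Other amino acid transporters did not move as a block with the 10. Of 33 set beside them, 21 had enough RNA to be tested. In Cardamonin 6 rose and 11 fell, in AEG 3482 also 6 and 11, and in Podofilox 8 rose and 4 fell. In Antimycin A 4 rose and 4 fell, with Clofilium tosylate 2 and 3, with Diphenyleneiodonium Cl 4 and 2, with BerberineA 2 and 5 and with Dihydrorotenone 1 and 3. Of all tested genes, 33% fell in Cardamonin and 26.8% in AEG 3482, smaller shares than 11 of 21. The shares that rose, 37.3% and 41.3%, were larger than 6 of 21. The counts in Antimycin A, Clofilium tosylate and Diphenyleneiodonium Cl were near the background. There, 21.8%, 10.9% and 14% of all genes rose, and 15.5%, 12.5% and 11.7% fell. For the rest, 26.2% of all genes rose and 20% fell in Podofilox, 12.6% and 9.16% in BerberineA, and 4.95% and 9.43% in Dihydrorotenone. The median log2 fold change of the 21 was -0.15 in Cardamonin, -0.32 in AEG 3482 and 0.13 in Podofilox.

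Slc1a3, the glutamate carrier EAAT1 and a relative of Slc1a4, fell in all 8 compounds. It went from 47.0 ± 5.9 TPM (SD, n = 6) in DMSO to 1.53 ± 0.60 TPM (SD, n = 3) in Cardamonin (log2 -4.27, limma adjusted p = 1.79e-20) and 3.61 ± 1.0 TPM (SD, n = 3) in AEG 3482 (-3.39), the compounds in which Slc1a4 rose the most. Slc7a2, the cationic carrier CAT-2, fell in AEG 3482 to 15.2 ± 1.0 TPM (SD, n = 3) from 77.1 ± 6.7 TPM (SD, n = 6) (-2.27) and in Cardamonin to 48.0 ± 5.2 TPM (SD, n = 3) (-0.67), where Slc7a1 rose. In DMSO Slc7a2 was the most abundant of these cationic carriers. Slc43a2 (LAT4), a carrier of large neutral amino acids that needs no heavy chain, rose to 139.9 ± 7.1 TPM (SD, n = 3) in AEG 3482 and 95.6 ± 6.9 TPM (SD, n = 3) in Cardamonin from 29.5 ± 2.9 TPM (SD, n = 6), by 2.21 and 1.67. Its relative Slc43a1 (LAT3) fell in the same compounds, by 1.20 and 2.24 on the log2 scale. Slc16a10, an aromatic amino acid carrier, was at 6.39 ± 0.067 TPM (SD, n = 3) in Podofilox and 0.917 ± 0.18 TPM (SD, n = 6) in DMSO (1.95). Pqlc2, which exports cationic amino acids from lysosomes, rose by 1.03 in Cardamonin and 0.91 in AEG 3482. Slc6a17, a carrier of neutral amino acids known from synaptic vesicles, fell by 1.06 on the log2 scale in AEG 3482 and 0.74 in Cardamonin and rose by 0.39 in Podofilox.

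The 14 genes of the amino acid response were measured in the same libraries, and all 14 were tested. In Antimycin A and Clofilium tosylate 11 rose and none fell, in Podofilox 12 rose and none fell, and in Cardamonin and AEG 3482 11 rose and 1 fell. In BerberineA 5 rose and none fell, in Diphenyleneiodonium Cl 4 rose and 3 fell, and in Dihydrorotenone 1 rose and 4 fell. Equal counts did not stand equally far above the background. Of all tested genes, 10.9% rose in Clofilium tosylate, 21.8% in Antimycin A and 26.2% in Podofilox. In Cardamonin 37.3% rose and in AEG 3482 41.3%. In BerberineA 12.6% rose and 9.16% fell, in Diphenyleneiodonium Cl 14% and 11.7%, and in Dihydrorotenone 4.95% and 9.43%. The median log2 fold change of the 14 genes stood at 1.45 in Cardamonin, 0.97 in Podofilox and 0.77 in Antimycin A. It was 0.73 in AEG 3482 and 0.52 in Clofilium tosylate. Atf4 itself was at 299 ± 12 TPM (SD, n = 3) in Podofilox, 288 ± 11 TPM (SD, n = 3) in Cardamonin, 212 ± 1.7 TPM (SD, n = 3) in Antimycin A, 188 ± 2.4 TPM (SD, n = 3) in AEG 3482 and 134 ± 6.5 TPM (SD, n = 6) in DMSO. Asns, asparagine synthetase, had a higher mean in Antimycin A (62.8 ± 5.5 TPM (SD, n = 3)) than in AEG 3482 (42.7 ± 6.8 TPM (SD, n = 3)), as did Slc38a1 (14.3 against 7.1 TPM) and Slc7a3 (1.94 against 1.66 TPM), whereas the other 8 members had higher means in AEG 3482. Trib3, a pseudokinase induced by ATF4, also had a higher mean in Antimycin A (29.4 ± 1.5 TPM (SD, n = 3)) than in AEG 3482 (9.07 ± 1.2 TPM (SD, n = 3)), against 4.42 ± 0.72 TPM (SD, n = 6) in DMSO. Antimycin A and AEG 3482 were not tested against each other.

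Chac1, which breaks down glutathione, was at 40.8 ± 1.3 TPM (SD, n = 3) in Cardamonin, 20.4 ± 3.4 TPM (SD, n = 3) in Podofilox and 3.12 ± 0.56 TPM (SD, n = 6) in DMSO, and it followed Slc7a5. Over the 9 group means of log2(TPM + 1), Pearson's r between Chac1 and a member was 0.98 for Slc7a5, 0.94 for Slc7a1, 0.90 for Slc7a3, 0.89 for Slc6a9, 0.83 for Slc3a2, 0.82 for Slc1a4, 0.77 for Slc1a5 and 0.72 for Slc38a1. It was 0.32 for Slc38a2 and 0.24 for Slc6a6. Among Atf4, Asns, Trib3 and Chac1, Chac1 gave the highest r for most members. Atf4 gave the highest for Slc7a3 (0.95), Slc38a1 (0.82) and Slc38a2 (0.43). With Atf4, r was 0.90 for Slc7a5, 0.74 for Slc3a2 and 0.73 for Slc1a4. With Trib3 it was 0.86, 0.68 and 0.61 for the same genes. The 9 points share the same libraries and the same TPM scale in both genes, and the Cardamonin group lies far from the rest in most of them.

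**Figure D5:**
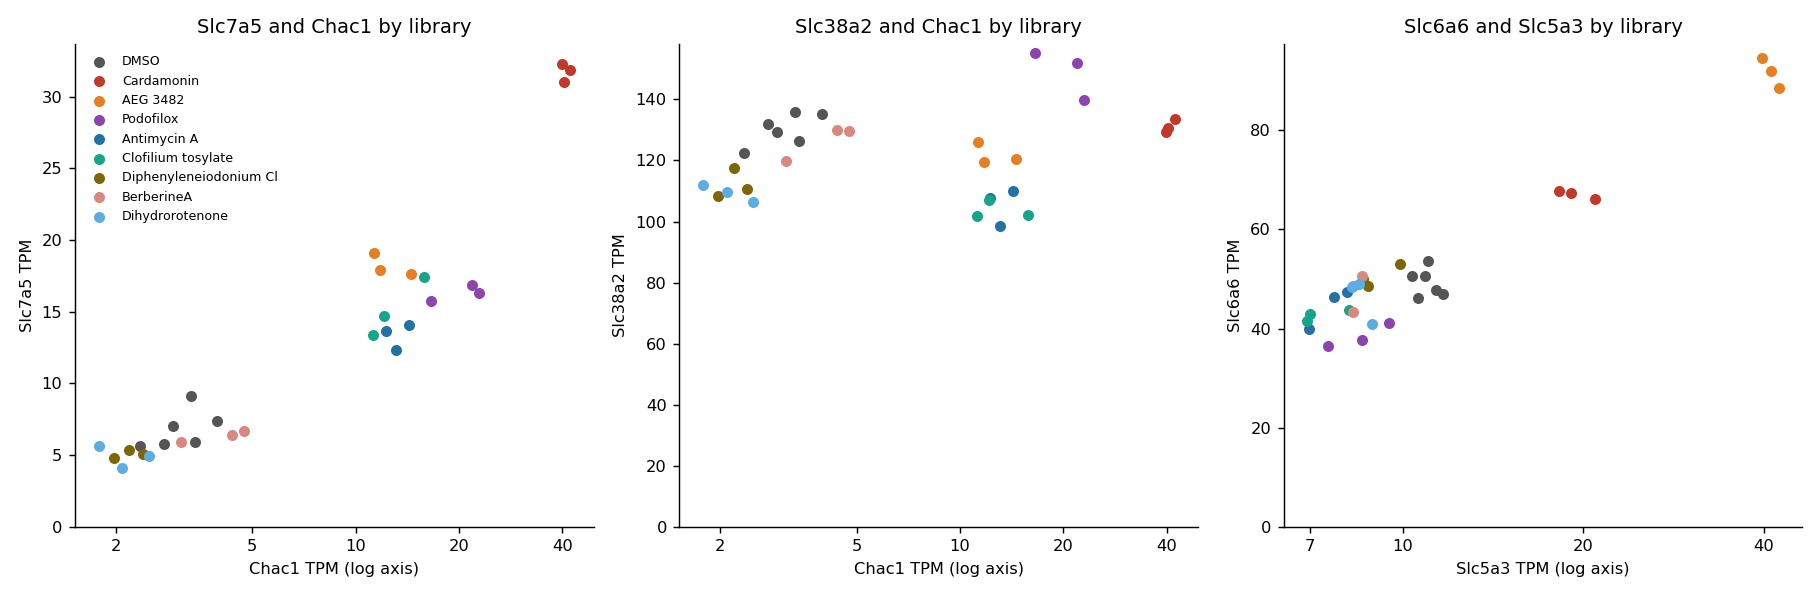
TPM by library, coloured by group, of Slc7a5 (left) and Slc38a2 (middle) against Chac1, and of Slc6a6 against Slc5a3 (right), with the horizontal axes on a log scale. Slc7a5 climbs with Chac1 from DMSO to Cardamonin, Slc38a2 stays between 98.6 and 155 TPM, and the AEG 3482 libraries are highest for both Slc6a6 and Slc5a3.

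Among the members themselves, 19 of 45 pairs had a Pearson's r above 0.8 over the 9 group means. The highest were Slc3a2 with Slc1a4 (0.98), Slc1a4 with Slc6a9 (0.97) and Slc7a1 with Slc7a5 (0.97). A single pair was below 0, Slc38a1 with Slc6a6 (-0.23). Across 9628 tested genes with a mean of at least 5 TPM and an ordinary symbol, the genes most like Slc7a5 were Atf5 (0.985), Chac1 (0.981) and Psat1 (0.970), all of the amino acid response list. Those most like Slc7a1 were Eprs (0.983), Cebpg (0.977) and Anp32b (0.976), and those most like Slc7a3 were Mat2a (0.993), Derl1 (0.986) and Ppp1r15a (0.979). Slc3a2 was most like Prdx6 (0.993), Crlf3 (0.992) and Pole4 (0.992), and Slc1a4 most like Rab5if (0.998), Rbm28 (0.998) and Heatr1 (0.997). Genes with a pattern like that of Slc1a5 included Gpatch4 (0.973) and Zdhhc21 (0.972), and Slc38a1 was most like Fiz1 (0.984), Ipo5 (0.979) and Afg3l2 (0.977). Slc38a2 had the lowest likeness to any gene, with Hnrnpul2 (0.938), Serpine2 (0.936) and Ugdh (0.929). Slc6a9 was most like Ftsj3 (0.993), Apobr (0.988) and Leprotl1 (0.985), and Slc6a6 most like Wwtr1 (0.992), Tef (0.990) and Ddit4l (0.983). These are descriptions over 9 points that share their libraries.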

How the data were processed

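RNA isolation used RNAzol and ribosomal RNA was removed before library preparation, per the labels' protocols. The deposited values are TPM per gene for 30 libraries. The authors made them with kallisto 0.43.1, per the submitters' processing notes, which name the mm10 build, and with tximport, per the series text. TPM is relative to each library's total, fixed by definition. The listed genes made up 92.7% to 93.7% of that total, and the reads per library are unknown, so no counting intervals are given and precision rests on the replicates.

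From these values, log2(TPM + 1) was fitted with limma 3.58.1 in R 4.3.3 on the 13644 genes that reached 1 TPM in 3 or more libraries. The 9 groups of 30 libraries were fitted together, with an intensity trend, no block and Benjamini-Hochberg adjustment per comparison over all genes, threshold 0.05. There were 12 comparisons, 8 against DMSO and 4 between compounds. All tests are two-sided. All 6 libraries labelled DMSO were used, although the series text counts 5. No 2 libraries were identical. Identifiers were matched to GENCODE M21 (29505 of 29861 found).

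The 10 members, the gene lists and the tests were chosen with earlier results of these data known. The text names all members, the 4 osmolyte genes, and Atf4, Asns, Trib3 and Chac1. Of the other transporters it names those past the threshold by at least 1 on the log2 scale in any compound, and with 5 TPM or more as the mean of the higher group. It also names the 3 genes most like each member by Pearson's r over the group means, of which 1 is not reported here. The fit was tested on simulated data. Alternatives were a pseudocount of 0.1, no filter, a filter at a mean of 5 TPM, median-ratio scaling, quantile normalization, a fit of the compared groups alone, a replicate block, and leaving out each library.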

Additional observations from a re-analysis of the deposited data

Results flagged for a closer look

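In the 6 DMSO libraries, 26 genes of the lists were examined for a single library far from the rest, by the gap to its neighbour as a share of the whole range, and 4 stood out. Chance alone would mark about 1 gene in 20 if the values were independent and normally distributed. Neither was checked, and the genes share the same 6 libraries, so the rate is only a rough guide. Slc7a3 was at 2.29 TPM in DMSO replicate 2, against 1.11 to 1.48 TPM in the other 5. Slc7a11 was at 25.7 TPM in DMSO replicate 4, against 15.7 to 19.4 TPM. Trib3 was at 3.05 TPM in DMSO replicate 1, against 4.26 to 4.97 TPM. Slc6a12 was at 1.56 TPM in DMSO replicate 5, against 0.488 to 0.781 TPM. These are 4 different libraries, and the groups of 3 were not examined in this way.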

How the results depend on the processing

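Of the 120 member results and the other named results, 1 of 248 reversed: Slc38a2 in Cardamonin was -0.0916 with quantile normalization (limma adjusted p = 0.041), against 0.01. Over all alternatives for these 248 results, 98 values lost and 39 gained the threshold and 3670 kept their direction and side of it. The latter count includes 72 sign changes with neither value past the threshold. With only the compared groups fitted, 2 members passed in Dihydrorotenone (7 in the fit of all groups) and 3 in Diphenyleneiodonium Cl (5). Of the other transporters, 2 passed in Dihydrorotenone (4) and 3 in BerberineA (7). Of all genes, 898 passed in Dihydrorotenone (1963) and 385 between Antimycin A and Clofilium tosylate (711), with fewer libraries to estimate the spread.

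Leaving out each library in turn gave 4 to 7 members in Dihydrorotenone (4 without its replicate 1), 3 to 5 in Diphenyleneiodonium Cl (3 without its replicate 1) and 1 to 2 between Antimycin A and Clofilium tosylate. For the other transporters it gave 2 to 5 in Dihydrorotenone (2 without its replicate 1) and 4 to 7 in BerberineA (4 without its replicate 1 or DMSO replicate 4). For the same list it gave 8 to 13 in Podofilox, beside 12 with all libraries, and 4 to 8 in Diphenyleneiodonium Cl, beside 6. Over all genes it gave 1233 to 2179 in Dihydrorotenone (1233 without its replicate 1, 1268 without replicate 2), and 315 to 513 between Antimycin A and Clofilium tosylate. In that last comparison 315 passed without Antimycin A replicate 1, 442 without Clofilium tosylate replicate 1 and 470 without its replicate 3. In Cardamonin and Podofilox the count of members stayed at 9 in each of these fits.

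Samples with the same replicate number did not deviate together: over 36 pairs the correlation of their deviations ran from -0.0957 to 0.12, and 2 pairs exceeded 0.1. The labels give no other sign of pairing. Only DMSO had replicates 4, 5 and 6, so with the replicate number as a block each of those libraries was alone in its block. They then added nothing to the comparisons, and blocking and the loss of these controls cannot be told apart. In that fit, 4 of the other transporters passed in BerberineA (7 without the block) and 8 in Podofilox (12). Among the members, 6 passed in Dihydrorotenone and 6 in Clofilium tosylate, where Slc6a9 (adjusted p = 0.134) and Slc6a6 (adjusted p = 0.114) did not, and the other counts of members were the same. The causes of these differences were not tested. Depth is unknown, so what it limits cannot be stated.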
